A study of Mus musculus with 6 samples.

Results

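This report covers 10 genes of acetylcholine signalling in somatosensory cortex with and without Mef2c in its excitatory neurons. They were chosen by gene symbol and comprise 4 muscarinic receptor genes (Chrm1, Chrm2, Chrm3 and Chrm4), 5 nicotinic receptor subunit genes (Chrna3, Chrna4, Chrna5, Chrna7 and Chrnb2) and Lynx1, out of 21667 named genes. PolyA RNA was sequenced from 3 control mice, which were Mef2c fl/fl and Cre-negative, and 3 Mef2c cKO mice, which were Mef2c fl/fl; Emx1-Cre. All were males on a mixed SVeV-129 and C57BL/6J background, aged 14 weeks (replicate 1 of each genotype) or 12 weeks (replicates 2 and 3), and Cre is inserted in the endogenous Emx1 gene, which drives recombination in forebrain excitatory neurons and some glia and leaves most cortical interneurons unrecombined. The controls were littermates of Mef2c cKO mice, but the labels do not say which mice shared a litter.

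Acetylcholine reaches the cortex mainly from neurons of the basal forebrain. Muscarinic receptors are G protein-coupled: M1 and M3, encoded by Chrm1 and Chrm3, act through Gq and phospholipase C, whereas M2 and M4, encoded by Chrm2 and Chrm4, act through Gi/o and often sit on axon terminals, where they limit release. Nicotinic receptors are pentameric cation channels; in the cortex they are built mainly from α4 and β2 subunits (Chrna4 and Chrnb2), to which the accessory α5 subunit (Chrna5) can be added in deep-layer pyramidal neurons, or from α7 alone (Chrna7). Lynx1 encodes a membrane-anchored prototoxin that binds nicotinic receptors and dampens their response.

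In the Mef2c cKO cortex, 3 of the 9 genes that could be tested changed. Chrna5 rose 2.51-fold and Chrm2 rose 2.0-fold, while Chrm3 fell to 0.585 of the control level. The main nicotinic subunits Chrna4, Chrnb2 and Chrna7, and Lynx1, did not pass the test. Chrm1 and Chrm4 were higher by 19.5% and 21.1%, and passed on adjusted p-value but not on the size of the change; the adjusted p-value of both was above 0.05 in 5 of the 6 fits that left out a mouse. The change in each gene was expressed as a log2 fold change of CPM (reads on the gene per 1000000 reads of the sample), fitted with limma across all genes, and a gene was called where its Benjamini-Hochberg adjusted p fell under 0.05 and its log2 fold change exceeded 0.3 in size. Over all 14615 genes tested, 13.6% passed both cut-offs, 5.88% being higher and 7.77% lower in Mef2c cKO. The values of the 2 genotypes did not overlap for 6 of the 9 genes, 4 higher and 2 lower in Mef2c cKO, as against 33.8% of all genes tested (16.3% higher and 17.5% lower). The median log2 fold change was -0.07 over the 9 genes and 0.01 over all genes tested. In bulk tissue, fewer cells of a type and less RNA per cell cannot be told apart.

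The promoters of the 3 genes that changed are shown because they are the windows in which a regulator of transcription would be sought first. Each window runs from 250 bases before to 50 bases after a RefSeq transcription start; RefSeq gives the sequences on GRCm38.p6, and each was found exactly once in the mm9 build (NCBIM37) used by the files, whose coordinates are given here. Of the 10 genes, 8 had a window in the RefSeq table used here, 9 windows in all. Capitals mark GGGCGG, the core of the GC box, on either strand (CCGCCC on the strand shown).
Chrm2, chr6:36337834-36338133, + strand: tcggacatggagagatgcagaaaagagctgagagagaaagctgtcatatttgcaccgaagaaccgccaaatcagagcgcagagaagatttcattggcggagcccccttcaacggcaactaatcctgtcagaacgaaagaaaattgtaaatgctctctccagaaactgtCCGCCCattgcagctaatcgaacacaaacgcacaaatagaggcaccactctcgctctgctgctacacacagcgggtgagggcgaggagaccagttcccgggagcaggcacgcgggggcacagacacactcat
Chrm3, chr13:10360000-10360299, - strand: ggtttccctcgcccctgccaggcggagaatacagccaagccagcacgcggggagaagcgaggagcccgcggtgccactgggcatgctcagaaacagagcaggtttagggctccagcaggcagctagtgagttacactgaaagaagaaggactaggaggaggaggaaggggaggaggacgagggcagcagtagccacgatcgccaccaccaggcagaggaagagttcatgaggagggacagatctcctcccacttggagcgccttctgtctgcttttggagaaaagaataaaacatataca
Chrna5, chr9:54828437-54828736, + strand, first start: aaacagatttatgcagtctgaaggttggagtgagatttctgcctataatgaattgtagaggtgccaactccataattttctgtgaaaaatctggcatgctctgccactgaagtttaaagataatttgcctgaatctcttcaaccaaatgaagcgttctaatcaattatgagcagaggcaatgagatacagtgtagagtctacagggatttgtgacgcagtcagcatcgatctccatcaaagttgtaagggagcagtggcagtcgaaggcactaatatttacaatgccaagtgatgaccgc
Chrna5, chr9:54829045-54829344, + strand, second start: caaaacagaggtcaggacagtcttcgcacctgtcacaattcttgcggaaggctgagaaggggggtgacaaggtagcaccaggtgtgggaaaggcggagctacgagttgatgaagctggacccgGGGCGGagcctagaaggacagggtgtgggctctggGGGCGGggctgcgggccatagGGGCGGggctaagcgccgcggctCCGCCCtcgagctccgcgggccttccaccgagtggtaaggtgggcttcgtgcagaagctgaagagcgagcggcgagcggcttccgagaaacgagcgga

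The 2 Chrna5 starts differ in composition. The first window has 41.3% G and C bases, 5 CpG dinucleotides and no GGGCGG, whereas the second has 65.0%, 25 CpG and 4 matches. The Chrm2 window has 16 CpG and 1 match, and the Chrm3 window 11 CpG and none, beside a median of 7 CpG over the 32544 distinct mouse promoter windows of this length. GGGCGG occurred in 7 of the 9 windows of these genes and in 35.88% of all windows. The MEF2 consensus, a palindromic A/T-rich motif searched on both strands, had no match in the 9 windows and one or more in 3.16% of all windows. Absence of these letters concerns these windows alone.

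Chrm3 was the muscarinic gene that fell. It encodes the Gq-coupled M3 receptor, and in this annotation it is a single-exon model at chr13:9876381-9878329 on the minus strand, 1949 bases long and nearly all coding; the promoter window above lies 481671 bases upstream of it. Chrm3 measured 84.3, 91.1 and 100.3 CPM in control replicates 1, 2 and 3 and 49.8, 61.3 and 50.4 CPM in Mef2c cKO replicates 1, 2 and 3. Every Mef2c cKO mouse lay below every control mouse. The means were 91.9 ± 8.02 and 53.8 ± 6.48 CPM (SD, n = 3 each), a log2 fold change of -0.77 ± 0.10 (SE; limma, adjusted p = 0.000548).

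Chrm1 encodes M1, the most studied muscarinic receptor of cortical pyramidal neurons, and shares Gq coupling with M3. Its model at chr19:8738495-8758077 (plus strand, 3 exons) gave 163, 172 and 147 CPM in the controls and 195, 191 and 191 CPM in the Mef2c cKO mice. The genotypes did not overlap, and all 3 Mef2c cKO values were the higher ones. For Chrm1 the log2 fold change was 0.26 ± 0.07 (SE; limma, adjusted p = 0.0265), under the cut-off of 0.3. Without control replicate 2 it was 0.31 and passed both cut-offs, but without each of the other 5 mice the adjusted p of Chrm1 was above 0.05 (0.0594 to 0.0758, limma). The reads of Chrm3 relative to those of Chrm1 in the same mouse were 0.516, 0.530 and 0.684 in the controls and 0.256, 0.322 and 0.264 in the Mef2c cKO mice. This ratio needs no scaling to the sample total, and it fell to 0.488 of the control ratio (a difference of -1.04 in log2 units; exact permutation test, two-sided, p = 0.1, and 0.15 after adjustment over 3 ratios). In an exact permutation test of 3 mice against 3, p = 0.1 is the smallest value possible.

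Chrm2, which encodes the Gi/o-coupled M2 receptor and lies at chr6:36338084-36478414 (plus strand, 3 exons), rose in every Mef2c cKO mouse. It measured 10.7, 9.84 and 8.34 CPM in the controls and 18.1, 20.6 and 19.1 CPM in the Mef2c cKO mice, from 364 to 1033 reads per mouse. The lowest Mef2c cKO value was well above the highest control value. The means were 9.63 ± 1.19 and 19.3 ± 1.27 CPM (SD, n = 3 each), a log2 fold change of 1.00 ± 0.11 (SE; limma, adjusted p = 0.00031). A noncoding gene on the opposite strand of Chrm2, 9330158H04Rik, was also higher, with 2.47, 2.49 and 2.33 CPM in the controls and 4.0, 4.45 and 4.90 CPM in the Mef2c cKO mice (log2 fold change 0.84; limma, adjusted p = 0.00267). The library was directional, but whether counting used strand is not given in the sources used here, so reads on a stretch common to both genes cannot be told apart.

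Chrm4, at chr2:91762346-91769986 (plus strand, 2 exons), encodes M4, the other Gi/o-coupled receptor, which is most abundant in striatum. It measured 34.8, 35.7 and 35.1 CPM in the controls and 46.3, 39.4 and 42.1 CPM in the Mef2c cKO mice. The controls were close together, and the Mef2c cKO mice were all higher but more spread out. The log2 fold change was 0.27 ± 0.07 (SE; limma, adjusted p = 0.0353), under the cut-off, and 0.33 without Mef2c cKO replicate 2, when it passed both. Without each of the other 5 mice the adjusted p of Chrm4 was above 0.05 (0.0785 to 0.107, limma). The same replicate was the lowest of the 3 Mef2c cKO mice in all 8 markers of striatal neurons measured. For Drd1 (49.6 CPM) and Penk (92.0 CPM) it still lay above every control (17.7 to 21.4 and 34.1 to 50.1 CPM). For the other 6 it was the lowest of all 6 mice. Among these, Adora2a measured 20.3, 1.35 and 14.1 CPM in Mef2c cKO replicates 1, 2 and 3, against 5.14 to 9.56 CPM in the controls. Of the 8 striatal markers measured, Drd1 and Penk rose and the other 6 did not pass, with summed levels of 186 to 261 CPM in controls and 204 to 408 CPM in Mef2c cKO mice. Higher calls were made for 5.88% of all genes tested. The part of these markers in the Chrm4 values was not tested.

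**Figure D1:**
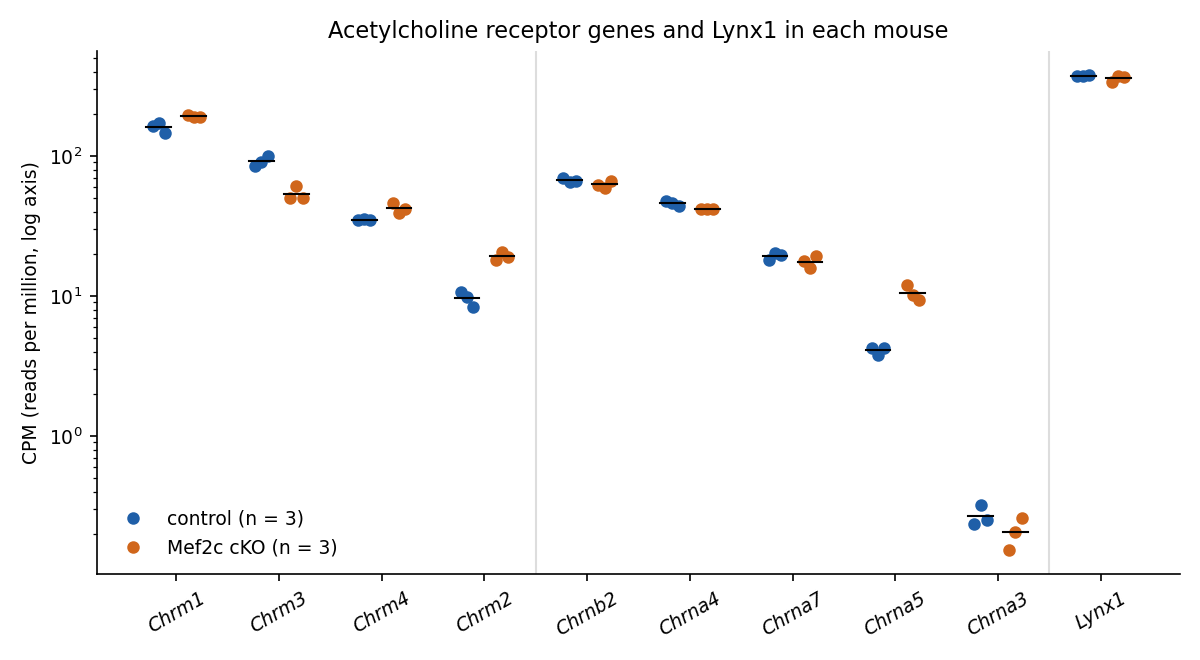
CPM of the 10 genes in each mouse on a log axis, with blue points for the 3 controls, orange points for the 3 Mef2c cKO mice and a black line for each mean; vertical lines set the muscarinic genes, the nicotinic subunits and Lynx1 apart. Chrm3 was lower, and Chrm2 and Chrna5 higher, in all 3 Mef2c cKO mice.

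Summed by G protein and per kilobase of transcript, the Gi/o-coupled genes (Chrm2 and Chrm4) stood at 0.208, 0.197 and 0.189 of the Gq-coupled genes (Chrm1, Chrm3 and Chrm5) in the controls and at 0.351, 0.289 and 0.330 in the Mef2c cKO mice. The 2 genotypes did not overlap. The ratio was 1.63 times the control ratio (0.70 in log2 units; exact permutation test, two-sided, p = 0.1, and 0.15 after adjustment over 3 ratios). Chrm3 enters this sum over its nearly coding-only length, which raises its level per kilobase and its weight in the ratio. The authors counted reads on a UCSC mm9 annotation, so the Chrm3 model behind the counts can differ from the 1949 bases used here. How the ratio would change with a longer Chrm3 was not tested. Within the Gi/o-coupled pair, Chrm2 reads were 0.238 to 0.308 of Chrm4 reads in the controls and 0.391 to 0.523 in the Mef2c cKO mice, a comparison chosen after the values were seen.

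Chrna5 had the largest fold change of the 9 genes tested. The gene lies at chr9:54828687-54855586 (plus strand, 6 exons), 3564 bases from Chrna3 in the cluster that also holds Chrnb4, and its subunit assembles only together with other subunits. It measured 4.23, 3.81 and 4.29 CPM in the controls and 12.0, 10.2 and 9.39 CPM in the Mef2c cKO mice, from 144 to 508 reads per mouse. Every Mef2c cKO mouse lay above every control. The means were 4.11 ± 0.264 and 10.5 ± 1.32 CPM (SD, n = 3 each), a log2 fold change of 1.33 ± 0.13 (SE; limma, adjusted p = 0.000125), with a 95% confidence interval from 2.06-fold to 3.06-fold.

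The other genes of the cluster had fewer reads than Chrna5. Chrna3, at chr9:54859150-54874366 (minus strand, 6 exons) and a main subunit of autonomic ganglia, stayed at 0.235, 0.324 and 0.252 CPM in the controls and 0.153, 0.207 and 0.259 CPM in the Mef2c cKO mice. At 4 to 16 reads per mouse it was too low to enter the test. Chrnb4, a partner of α3, measured 1.5, 2.31 and 1.55 CPM in the controls and 1.5, 1.71 and 1.40 CPM in the Mef2c cKO mice, and its log2 fold change was -0.18 (limma, adjusted p = 0.611).

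Chrna4 and Chrnb2, the subunits of the main heteromeric receptor, differed little. Chrna4, at chr2:180753085-180778251 (minus strand, 6 exons), measured 47.9, 46.0 and 44.2 CPM in the controls and 41.8, 41.9 and 42.1 CPM in the Mef2c cKO mice. All 3 Mef2c cKO values were below the controls, a separation in this direction that 17.5% of all tested genes showed, and the log2 fold change of -0.13 did not pass (limma, adjusted p = 0.191; 95% confidence interval -0.27 to 0.01). Chrnb2, at chr3:89557370-89568554 (minus strand, 6 exons), measured 70.2, 65.1 and 66.1 CPM against 61.9, 59.3 and 66.9 CPM, with overlapping genotypes and a log2 difference of -0.10 (limma, adjusted p = 0.375; 95% confidence interval -0.25 to 0.05).

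Chrna4 reads relative to Chrnb2 reads were 0.683, 0.707 and 0.668 in the controls and 0.675, 0.705 and 0.630 in the Mef2c cKO mice, which overlapped (exact permutation test, two-sided, p = 0.6, and 0.6 after adjustment over 3 ratios). Chrna5 reads relative to Chrna4 reads, a comparison chosen after the values were seen, were 0.0884, 0.0827 and 0.0971 in the controls and 0.287, 0.244 and 0.223 in the Mef2c cKO mice. The genotypes were separate for this second ratio.

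Chrna7, at chr7:70243578-70357455 (minus strand, 5 exons in its longest transcript), encodes the homomeric, calcium-permeable receptor. It measured 17.97, 20.2 and 19.8 CPM in the controls and 17.7, 15.8 and 19.3 CPM in the Mef2c cKO mice. Its genotypes overlapped, and the log2 fold change was -0.13 (limma, adjusted p = 0.418; 95% confidence interval -0.35 to 0.09). Lynx1, at chr15:74578286-74583409 (minus strand, 4 exons), measured 375, 370 and 382 CPM against 339, 375 and 364 CPM, for a log2 difference of -0.07 (limma, adjusted p = 0.501; 95% confidence interval -0.19 to 0.06). Here too the genotypes overlapped. The intervals of Chrna4, Chrnb2 and Lynx1 lie within the cut-off of 0.3 on either side, and that of Chrna7 reaches just beyond it.

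**Figure D2:**
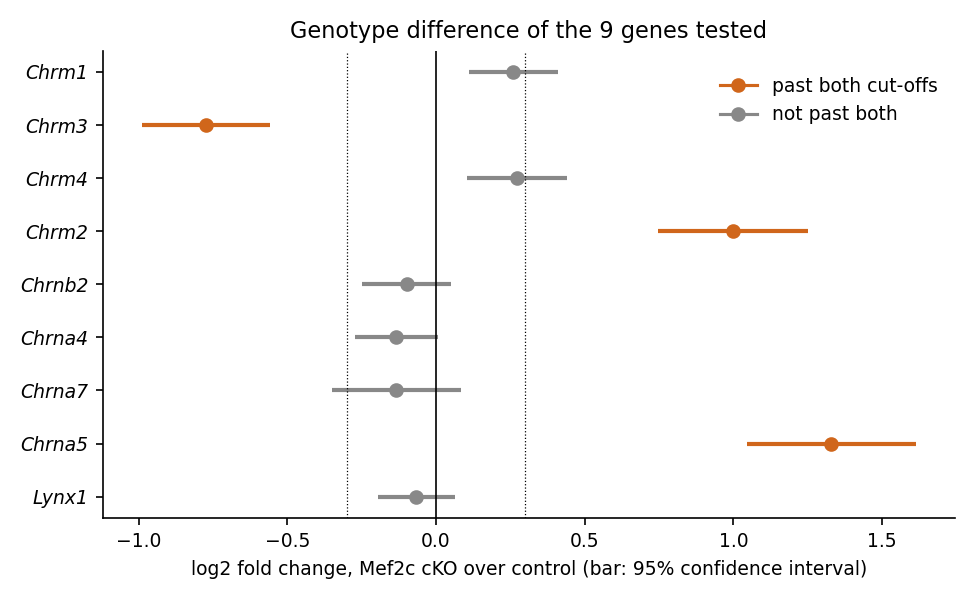
Log2 fold change of Mef2c cKO over control for the 9 genes tested, with the 95% confidence interval from limma; orange marks genes past both cut-offs and dotted lines the cut-off of 0.3. Chrm2 and Chrna5 lie to the right, Chrm3 to the left, and the intervals of Chrna4, Chrna7, Chrnb2 and Lynx1 include 0.

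**Figure D3:**
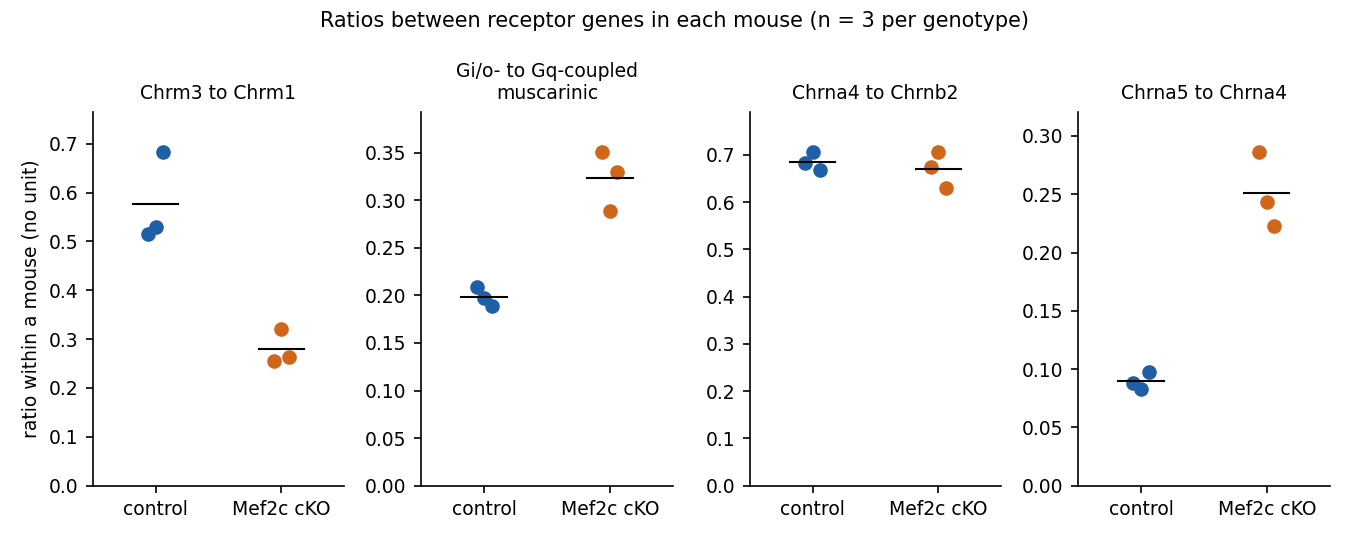
Ratios between receptor genes within each mouse, on linear axes that start at 0, with a black line for the mean of the 3 mice of each genotype; the Gi/o to Gq panel uses CPM per kilobase and the others reads. The genotypes are separate in every panel except Chrna4 to Chrnb2.

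Compared per kilobase of the longest annotated transcript, Lynx1 was the highest of the 10 genes in control cortex, at 95.1 ± 1.51 CPM per kb (SD, n = 3). Chrm3 followed at 47.2 and Chrm1 at 25.6 CPM per kb, the first over a nearly coding-only length. Chrm4 and Chrnb2, at 12.7 and 12.5 CPM per kb, overlapped in their ranges over the 3 controls, and were followed by Chrna4 (10.1) and Chrna7 (6.86, or 4.24 over all its annotated exons). Chrm2 and Chrna5, at 1.70 and 1.5 CPM per kb, also overlapped, and Chrna3 came last at 0.0866 CPM per kb. In the Mef2c cKO mice, Chrm1 (30.6 CPM per kb) and Chrm3 (27.6) overlapped, and so did Chrna5 (3.84) and Chrm2 (3.39).

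The other receptor genes were mostly near the limit of detection. Of 12 further muscarinic and nicotinic genes, 4 could be tested, and Chrna6 and Chrnb3 fell, beside 7.77% of all genes tested. Both entered the test through the controls alone, since not every Mef2c cKO mouse was above 0.5 CPM, and a gene that enters in this way is bound to be lower in Mef2c cKO in at least 1 mouse. Chrna6 and Chrnb3 encode subunits that commonly assemble together in midbrain and visual pathway neurons. Chrnb3 measured 2.59, 2.55 and 2.08 CPM in the controls and 0.580, 0.362 and 0.757 CPM in the Mef2c cKO mice (log2 fold change -1.95 ± 0.25, SE; limma, adjusted p = 0.000672), from 7 to 126 reads per mouse. Chrna6 measured 1.71, 0.871 and 0.951 CPM against 0.0916, 0.414 and 0.259 CPM (log2 fold change -1.90 ± 0.39, SE; limma, adjusted p = 0.00957), from 3 to 58 reads. The genotypes were separate for both genes, but the separation and these p-values are not independent of how the genes entered the test. In Chrna6 every Mef2c cKO value was under the floor of 0.5 CPM. Chrm5, the remaining Gq-coupled muscarinic gene, was at or below 0.0916 CPM in all 6 mice.

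In the cortex, acetylcholine is made and stored mainly in incoming axons. Of 7 genes for synthesis, transport and breakdown, 6 were tested, and Slc18a3, the vesicular transporter, had 0 reads in all 6 mice. Colq, which encodes a collagen tail of acetylcholinesterase, was lower (log2 fold change -1.04; limma, adjusted p = 0.043), at 6 to 68 reads per mouse. It was the only gene of this list to pass, beside 13.6% of all genes tested. Without any one of 5 of the 6 mice it did not pass. Like Chrna6 and Chrnb3, Colq entered the test through the controls alone. It measured 0.310 CPM in Mef2c cKO replicate 2, under the floor of 0.5 CPM, and so was bound to be lower in that mouse. Ache, which encodes acetylcholinesterase, measured 80.3, 75.3 and 77.4 CPM in the controls and 74.4, 72.0 and 75.2 CPM in the Mef2c cKO mice (limma, adjusted p = 0.452). Chat, which encodes the enzyme of acetylcholine synthesis, had a mean of 1.49 CPM in the controls and 1.18 CPM in the Mef2c cKO mice, with overlapping genotypes (0.778-fold; limma, adjusted p = 0.4).

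Of the 7 prototoxin genes of the Ly6 family to which Lynx1 belongs, 5 were tested and 2 fell, beside 7.77% of all genes tested. Lypd1, whose product Lynx2 also binds nicotinic receptors, measured 34.3, 42.1 and 38.5 CPM in the controls and 18.05, 19.2 and 25.3 CPM in the Mef2c cKO mice. Its genotypes did not overlap (log2 fold change -0.89 ± 0.13, SE; limma, adjusted p = 0.00144). Ly6e was lower by a smaller margin (log2 fold change -0.38; adjusted p = 0.0205, limma) and did not pass without control replicate 1 or 2 or without Mef2c cKO replicate 2 or 3. None of the 4 genes for receptor assembly found in the files (Tmem35, Ric3, Rer1 and Vsnl1) passed the limma test with both cut-offs, and their adjusted p-values ranged from 0.0883 to 0.985.

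Downstream of the Gq-coupled receptors lie the Gq pathway and the M-current, the potassium current that muscarinic receptors suppress. Of the 12 genes reported here for them, 4 passed, 1 higher and 3 lower, beside 13.6% of all genes tested. Rgs4, which speeds up the inactivation of Gq and Gi/o proteins, fell from 642 ± 48.3 to 268 ± 13.8 CPM (SD, n = 3 each; log2 fold change -1.26; limma, adjusted p = 6.12e-06). Kcnq3, a subunit of the M-current channel, fell to 0.517 of the control level (limma, adjusted p = 0.000734). The phospholipase gene Plcb4 fell as well (-0.48 on the log2 scale; limma, adjusted p = 0.000978). Plcb1, with more reads, was lower (mean 394 against 325 CPM) but did not pass on size (log2 fold change -0.28; limma, adjusted p = 0.0055). Plcb3 did not pass (0.06; limma, adjusted p = 0.809). Of the protein kinase C genes reported here, Prkca rose (log2 fold change 0.52; limma, adjusted p = 0.000191), while Prkcb did not pass (0.02; limma, adjusted p = 0.883).

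For the Gi/o-coupled receptors, 2 of 10 genes passed, in opposite directions. Both encode subunits of the G protein-gated potassium channels that M2 receptors open. Kcnj6 rose (log2 fold change 0.40; limma, adjusted p = 0.0139) and Kcnj9 fell (-0.31; adjusted p = 0.0218), and each lost its call when 1 of several mice was left out, 4 for Kcnj6 and 3 for Kcnj9. Over the 6 lists, 11 of the 41 tested genes reported here passed, 2 of them higher and 9 lower, with a median log2 fold change of -0.004. Of all genes tested, 13.6% passed, 5.88% being higher and 7.77% lower. Chrna6, Chrnb3 and Colq, among the 9 lower genes, had entered the test through the controls alone.

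**Figure D4:**
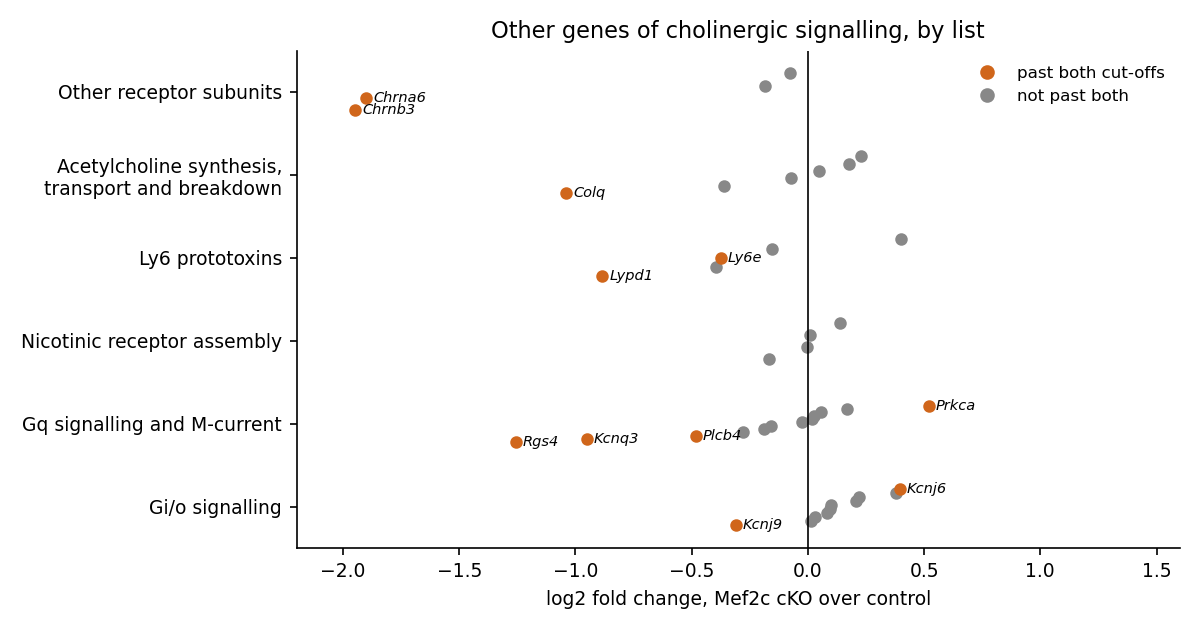
Log2 fold change of Mef2c cKO over control for 41 tested genes of 6 lists, one point per gene and one row per list, with genes past both cut-offs in orange and named. Of the 11 named genes, 9 lie to the left of 0 and 2 to the right. Chrna6, Chrnb3 and Colq, among the 9, entered the test through the controls alone. Of all genes tested, 7.77% were called lower and 5.88% higher.

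Markers of cortical layers and cell types differed as well. For comparison, 13.6% of all genes tested passed both cut-offs, 5.88% being higher and 7.77% lower. Of 8 deep-layer excitatory markers, 3 rose (Ntsr1, Nxph4 and Tbr1) and Fezf2 fell, with summed levels of 404 to 504 CPM in the controls and 579 to 657 CPM in the Mef2c cKO mice. Tbr1 was the largest part of these sums (mean 194 CPM in controls against 310 CPM in Mef2c cKO). Foxp2, Tle4, Bcl11b and Ctgf did not pass. The 5 upper-layer markers reported here (Cux1, Cux2, Rorb, Lhx2 and Rasgrf2) were called lower, with sums of 484 to 554 CPM against 212 to 234 CPM. Among 11 interneuron markers, Pvalb fell and Sst, Npy, Htr3a and Ndnf rose, with overlapping sums of 756 to 852 and 808 to 876 CPM. Of the 5 genes listed as thalamic markers, Rora fell (mean 71.7 against 31.6 CPM) and Prkcd rose, and Lhx9 and Gbx2 were at or below 0.259 CPM in all 6 mice. Whether the Rora reads came from thalamic neurons was not tested. Tcf7l2 was measured in every mouse and did not pass (mean 6.79 CPM in controls against 8.34 CPM in Mef2c cKO; limma, adjusted p = 0.244). Among 5 astrocyte markers, Gfap rose 2.58-fold and Aqp4 1.66-fold and Aldh1l1 fell, with sums of 3835 to 4101 CPM against 3326 to 3604 CPM. Slc1a2 made up most of these sums (mean 3407 against 2864 CPM). It did not pass on the size of its change (log2 fold change -0.25; limma, adjusted p = 0.0462). Among 5 oligodendrocyte markers, Mobp rose 1.56-fold, with sums of 2926 to 4832 CPM against 4760 to 6083 CPM. The 4 microglial and 3 endothelial markers did not pass (limma, adjusted p from 0.0702 to 0.89). The part of these markers in the changes of Chrna5, Chrm2, Chrm3, Chrna6 and Chrnb3 was not tested.

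The sample totals ranged from 19326365 reads (Mef2c cKO replicate 2) to 54128334 reads (Mef2c cKO replicate 3). Mice of one genotype correlated at r = 0.9918 to 0.9948 over the tested genes, and mice of different genotypes at 0.9783 to 0.9808. Mef2c itself measured 772 to 800 CPM in the controls and 1231 to 1468 CPM in the Mef2c cKO mice; a whole-gene count does not resolve the floxed exon, so this neither checks nor contradicts the labels. Of 4 general markers of excitatory neurons, Slc17a7 (mean 1191 against 1241 CPM) and Camk2a (3346 against 3330 CPM) did not pass, Neurod6 rose (41.6 against 104.6 CPM; limma, adjusted p = 0.000133) and Emx1, the gene into which Cre is inserted, fell (18.5 against 5.26 CPM; limma, adjusted p = 1.22e-05). Both cut-offs were passed by 13.6% of all genes tested.

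The genes whose pattern over the 6 mice was most like that of each changed gene, among 10352 genes with a mean of at least 10 CPM, were Dixdc1 and St8sia3 for Chrm2 (r = 0.9975 each), Etfa and Sorcs1 for Chrm3 (r = 0.9963 and 0.9961) and, among those reported here, Dgka for Chrna5 (r = 0.9990). These are descriptions over 6 mice that form 2 genotypes, and 232, 233 and 281 genes had an r above 0.95 with Chrm2, Chrm3 and Chrna5.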

How the data were processed

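PolyA RNA of somatosensory cortex was sequenced as directional libraries. The authors aligned reads to mm9 with TopHat and Bowtie, counted them with HTSeq (versions and strand setting not given in the sources used here) and deposited RPKM values, 1 table per mouse. Rows without a gene name (92, with 0.053 to 0.078% of reads) were left out.

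In each table the deposited RPKM were found to be whole counts divided by a short list of lengths (65 to 296 entries) repeated down the genes in an order unrelated to their own lengths, so that 1 gene has different lengths in different mice. Counts were recovered from these steps: 99.69 to 99.83% of values above 0 came out whole, and the counts summed to 99.95 to 99.96% of the sample total. On simulated tables all 6 totals were recovered and all returned counts were right. The simulation used the gene order and list sizes found in the deposited values. It therefore cannot test whether that order and the repeated lengths hold there. CPM is the recovered count per 1000000 reads of the total.

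log2(CPM + 0.1) was compared with limma 3.58.1 (R 4.3.3; lmFit, eBayes with a variance trend) for the 14615 genes above 0.5 CPM in every mouse of at least 1 genotype. The log2(CPM + 0.1) scale understates changes of low genes. On data simulated for this comparison (14517 genes), 91% of changes of 0.6 and 98% of changes of 1 in log2 were called, and so were 15 unchanged genes. The spread between the simulated mice was assumed and not estimated from these 6 mice, so these shares hold for that spread alone. Ratios were compared by two-sided exact permutation tests in scipy 1.17.1, with Benjamini-Hochberg adjustment. Levels per kilobase used gencode vM1 (NCBIM37, the build of the files), whereas the authors counted reads on a UCSC mm9 annotation. P-values rest on the spread between these 6 mice, and in limma the variance of each gene is also drawn toward a trend over all genes tested. Called genes of the pathway lists were named, up to 6 a list by adjusted p, with the 2 most similar genes for each called member; other genes named were chosen after their values were seen. Of the genes on the lists, 3 are not reported here. The members and lists were chosen with earlier results of these data known. Alternatives were other pseudocounts, filters, scalings and variance models, the deposited RPKM, a replicate block, age as a covariate and leaving out each mouse.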

Additional observations from a re-analysis of the deposited data

How the results depend on the processing

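The calls of Chrm2, Chrm3 and Chrna5 held, with the same direction, under the other pseudocounts, filters and variance model, median-of-ratios scaling, age as a covariate, the replicate block and each left-out mouse. With 1 mouse left out, their log2 fold changes ranged from 0.899 to 1.077 (Chrm2), -0.871 to -0.709 (Chrm3) and 1.233 to 1.407 (Chrna5), the number of the 10 genes past the cut-offs from 3 to 4, and the genes past the cut-offs overall from 1660 to 1869 (896 to 1079 lower and 687 to 872 higher). The Chrna4 to Chrnb2 difference ranged from -0.073 to 0.009 in log2 units, the latter without Mef2c cKO replicate 3, where its sign turned.

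The replicate numbers showed no sign of a pairing in the values. The deviations of same-numbered mice from their genotype means correlated at -0.18, -0.107 and -0.086, and those of differently numbered mice at -0.023 to 0.119. This cannot exclude a shared litter or batch, since the replicates 1, both aged 14 weeks, had the lowest value. With the replicate block, 1693 genes passed (971 lower and 722 higher), 3 of the 10 genes among them, and the acetylcholine synthesis, transport and breakdown list went from 1 to 0. That list was also at 0 without the filter, with a mean CPM of at least 1, without the variance trend and with age as a covariate, and at 0 to 1 with 1 mouse left out. The Ly6 list was at 1 and the Gi/o list at 0 without the variance trend; with 1 mouse left out they ranged from 1 to 2 and from 0 to 2. The other receptor list was at 1 with a mean CPM of at least 1, where Chrna6 was not tested.

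On the deposited RPKM, whose lengths differ between mice for 1 gene, 14 genes passed (5 lower and 9 higher), and 0 of the 10 genes and 0 genes of the other receptor, acetylcholine, Ly6, Gq and Gi/o lists. There Chrm3 had a log2 fold change of -0.605 (adjusted p = 0.954), and Chrm4 (-1.535) and Chrnb2 (1.375) changed sign; Chrm2 and Chrna5 gave no value in that fit. Genes with few reads, such as Chrna3 at 4 to 16 reads per mouse, were limited by depth.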
